A study of Mus musculus with 4 samples.

Results

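Semaphorins, ephrins, Slits and netrins are guidance ligands, and plexins, Eph kinases, Robos and Unc5 proteins are their receptors. The genes described here are those of mouse whose symbol names them as members of these families. A total of 68 of the 47729 genes in the deposited tables matched that rule, which used names and no measured value. The families were, however, chosen with earlier results of these data known. They were 65 protein-coding genes and 3 antisense RNAs of the Plxna4 locus (Plxna4os1, Plxna4os2 and Plxna4os3), and 61 of the 68 passed the expression filter and were tested.

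RNA sequencing was done on lungs of mice of strain BL/6 and genotype Control (Rosa), in a series about mutations of KCNK3, a potassium channel gene linked to pulmonary hypertension. The treated group, labelled Sugen-Hypoxic, had Sugen, an inhibitor of VEGF receptors, and hypoxia together, and comprised 2 libraries, each a pool of 2 males. The comparison group, labelled Normoxic, comprised 2 libraries, one a pool of 3 females (replicate 1) and one of 1 female and 2 males (replicate 2). All 4 libraries carry the control genotype, and the labels give neither the animals' ages nor the length of exposure. The title of every sample also carries the tag MSX1, which the labels do not explain. Treatment and pool sex cannot be told apart in this design, nor can Sugen and hypoxia, which no group had singly. Nothing in the labels says that pools of a group came from separate litters or experiments, so p-values measure only the spread between these pools.

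Guidance ligands were named for steering axons, and the same molecules shape blood vessels. Ephrin-B2 on arterial and sprouting endothelium meets EphB4 on veins, with signals running into both cells. Class 3 semaphorins are secreted and act mostly through neuropilin and plexin complexes, Slits bind Robo receptors, and netrin-1 binds Dcc, neogenin and Unc5 receptors. Lung endothelium, mural cells, fibroblasts and epithelium all use these systems during branching and vessel growth.

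Libraries held 57.3 to 67.1 M gene counts, and 1 CPM (count per 1 M gene counts, on the scale used below) stands for 55.4 to 68.4 reads. Lung markers summed to 28962 to 36055 CPM per library and 8 kidney markers to 0.199 to 0.819 CPM, with Slc22a6 at 0, which bears on an extraction text that names kidneys. Xist stood at 0.505 and 0.512 CPM in both treated pools of males, while the normoxic pool of females had 495 CPM and the mixed one 149 CPM. All levels below are CPM scaled by TMM factors (edgeR's normalization), log2 fold changes set Sugen-hypoxia over normoxia and come from edgeR's quasi-likelihood test with their standard errors (SE), and a gene is said to have risen or fallen where its Benjamini-Hochberg adjusted p over all 18783 genes tested was under 0.05.

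Of the 61 guidance genes tested, 9 rose and 6 fell after Sugen-hypoxia, which is 24.6% of them, beside 11.5% of all genes tested. In each direction the background was 5.51% higher and 6.01% lower. All 15 lay among the 45 members with a mean of at least 10 CPM, a range in which 15.3% of all genes were called, 8.14% higher and 7.11% lower. Unc5b, Ntn1, Sema3c, Epha4, Sema4c, Slit3, Robo2, Robo4 and Sema6b rose, and Efnb2, Sema4d, Efna1, Epha1, Sema6a and Plxna1 fell. The median log2 fold change over the 61 was 0.0050, beside -0.0039 over all genes. Ligands and receptors both went in either direction, with 5 of 32 tested ligands higher and 4 lower, and 4 of 28 tested receptors higher and 2 lower. Only 3 members differed at least 2-fold: Unc5b and Ntn1 upwards and Efnb2 downwards. The CPM of the groups did not overlap for 44 of the 61, beside 61.7% of all genes.

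**Figure D1:**
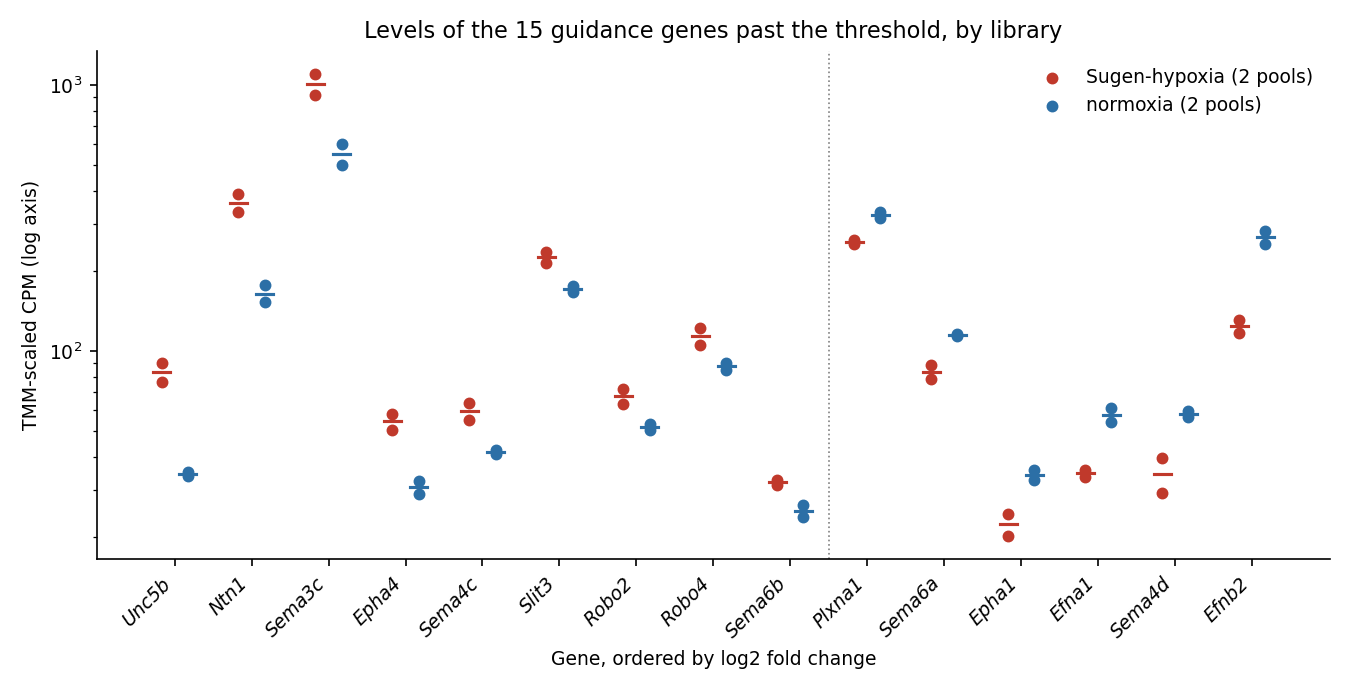
Levels of the 15 guidance genes past the threshold in each library, in TMM-scaled CPM on a log axis, with the 2 Sugen-hypoxia pools (red) left of the 2 normoxia pools (blue), short bars at group means and a dotted line between the 9 genes that rose and the 6 that fell. The groups do not overlap for any of the 15, and Sema3c is the most abundant, at 923 to 1104 CPM in treated pools and 503 to 602 CPM in normoxic pools.

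The 300-base windows around the RefSeq start sites (250 bases before to 50 after, build GRCm38.p6) are shown for the members with the largest changes that the RefSeq table lists, since these are the genes on which the account turns. Capitals mark ACGTG, a form of the core of sites bound by hypoxia-inducible factors, and TNGCGTG, the site of the aryl hydrocarbon receptor, each searched on both strands. The other form of that core, GCGTG, which TNGCGTG contains, was not searched for by itself.
Unc5b, chr10:60831532-60831831, minus strand: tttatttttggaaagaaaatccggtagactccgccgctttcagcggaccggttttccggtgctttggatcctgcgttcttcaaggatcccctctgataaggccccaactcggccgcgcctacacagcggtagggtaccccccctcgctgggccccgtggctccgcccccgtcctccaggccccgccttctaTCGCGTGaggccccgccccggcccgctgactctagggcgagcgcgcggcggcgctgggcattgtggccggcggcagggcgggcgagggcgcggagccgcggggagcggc
Efnb2, chr8:8661193-8661492, minus strand: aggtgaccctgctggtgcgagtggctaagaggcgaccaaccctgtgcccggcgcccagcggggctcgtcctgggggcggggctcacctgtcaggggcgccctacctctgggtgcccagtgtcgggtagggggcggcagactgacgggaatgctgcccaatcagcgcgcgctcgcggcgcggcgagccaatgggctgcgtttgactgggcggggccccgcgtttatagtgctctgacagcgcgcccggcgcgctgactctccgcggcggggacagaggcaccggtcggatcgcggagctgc
Sema3c, chr5:17574566-17574865, plus strand: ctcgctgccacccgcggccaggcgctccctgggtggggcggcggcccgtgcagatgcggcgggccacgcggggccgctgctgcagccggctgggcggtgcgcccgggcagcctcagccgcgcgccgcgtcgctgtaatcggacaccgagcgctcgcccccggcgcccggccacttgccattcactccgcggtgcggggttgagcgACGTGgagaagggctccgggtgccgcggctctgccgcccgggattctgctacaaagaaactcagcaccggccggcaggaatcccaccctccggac
Epha4, chr1:77515039-77515338, minus strand: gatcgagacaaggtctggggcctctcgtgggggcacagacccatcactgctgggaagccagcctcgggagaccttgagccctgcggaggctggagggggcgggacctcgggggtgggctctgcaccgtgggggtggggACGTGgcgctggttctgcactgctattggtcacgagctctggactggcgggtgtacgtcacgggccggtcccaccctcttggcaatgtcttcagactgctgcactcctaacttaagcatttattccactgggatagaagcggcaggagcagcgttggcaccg

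The Unc5b window holds 1 match to TNGCGTG, starting 59 bases before the start site, and none to ACGTG. Sema3c and Epha4 each hold 1 match to ACGTG, 45 and 112 bases before the start, and the Efnb2 window holds neither sequence. The sequence TGGGAA, not marked in capitals and known as the core bound by the Notch effector Rbpj, was found in the Epha4 window alone of these 4. Over all 32851 RefSeq windows, 19.6% hold ACGTG, 5.07% TNGCGTG and 25.6% TGGGAA. Among the 19 windows of the 12 called members that are listed, the counts were 5, 2 and 3, and among all 72 windows of 56 members 13, 3 and 17. The 3 sequences do not overlap one another where they were found in these 4 windows.

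Netrin-1 and its receptor Unc5b rose together, the largest rises among the members. Ntn1 (ENSMUSG00000020902, GRCm38 chromosome 11, 68209364 to 68400823) encodes the secreted laminin-related ligand and stood at 390 and 333 CPM in the treated libraries, against 176 and 152 CPM in the normoxic ones. Its log2 fold change was 1.14 ± 0.11, a 2.2-fold rise with adjusted p = 0.00675. Unc5b (ENSMUSG00000020099, chromosome 10, 60762593 to 60831581), the Unc5 receptor known from arterial and sprouting endothelium, was at 90.1 and 76.2 CPM after treatment and at 35.2 and 33.9 CPM in normoxia. That is a log2 fold change of 1.27 ± 0.09, or 2.4-fold, with adjusted p = 0.00468. For both genes the treated libraries lay above both normoxic ones by more than the gap within either group.

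The other netrin and Unc5 genes did not pass. Ntn4, a basement membrane netrin and the most abundant of the family per exon length over all 4 libraries, was at 201 and 173 CPM in treated libraries and 191 and 185 CPM in normoxic ones, a log2 fold change of -0.0088 ± 0.09. Unc5a and Unc5c had log2 fold changes of 0.0050 ± 0.09 and 0.016 ± 0.07, and their libraries overlapped. Unc5d was rare, at 1.34 and 0.668 CPM after treatment against 1.59 and 2.14 CPM in normoxia (log2 fold change -0.90 ± 0.40, adjusted p = 0.201). The make-up of both families therefore differed between the groups. Of the summed netrin level per exon length, Ntn1 held 53.7 and 53.4% in the treated libraries and 35.5 and 32.9% in the normoxic ones, and Unc5b held 76.7 and 73.1% of the Unc5 level, against 56.0 and 54.3%. Ntn5 had no count in any library on the strand used, with 16 reads on the opposite strand, and Dcc, the receptor through which netrin-1 attracts axons, was at 0 in all libraries. Neo1, the Dcc-related neogenin, had a log2 fold change of -0.28 ± 0.10 and did not pass (adjusted p = 0.119).

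**Figure D2:**
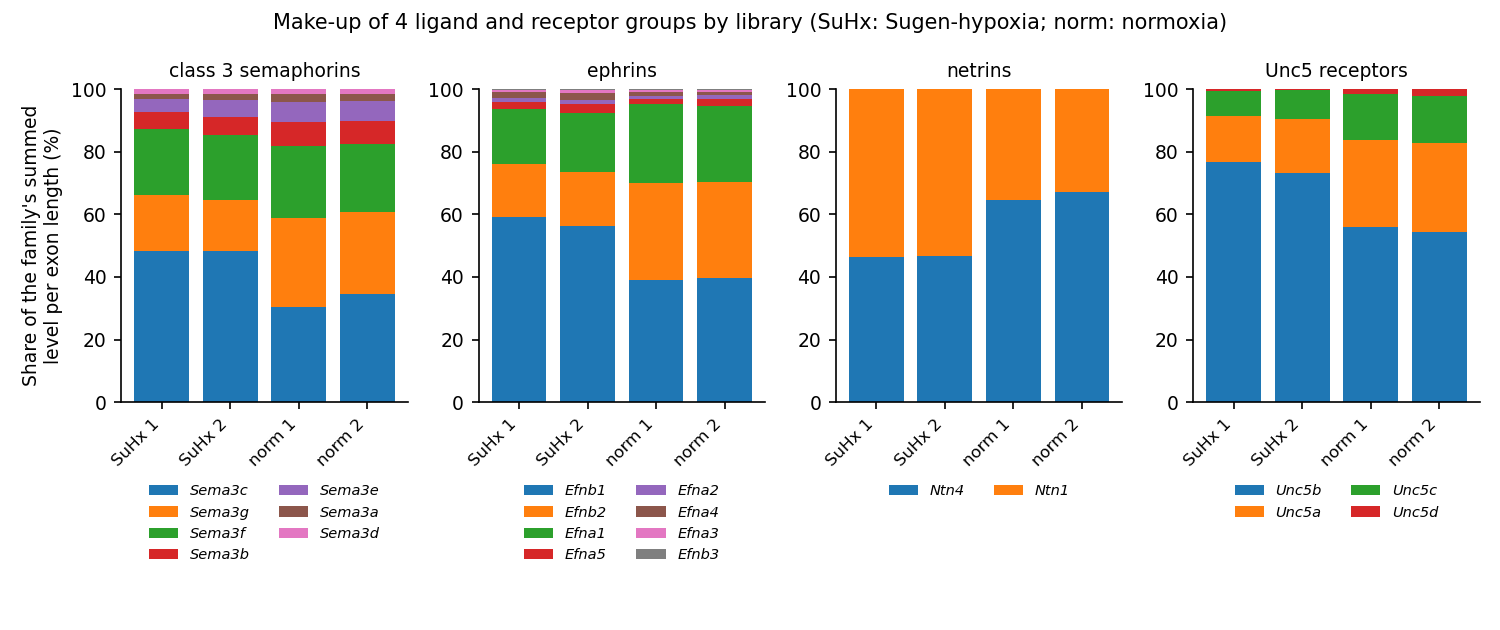
Make-up of class 3 semaphorins, ephrins, netrins and Unc5 receptors in each library, as each member's share in percent of the group's summed CPM per kilobase of exon, with Sugen-hypoxia libraries (SuHx) left of normoxia libraries (norm). Sema3c, Efnb1, Ntn1 and Unc5b hold larger shares in both treated libraries, and Efnb2 and Sema3g smaller ones.

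Among ephrins, the membrane-bound ligands of Eph kinases, 2 of 8 fell and the other 6 did not pass. Efnb2 (ENSMUSG00000001300, chromosome 8, 8617434 to 8661242), the arterial ephrin, had the largest fall of any member. It was at 130 and 117 CPM in treated libraries, against 283 and 253 CPM in normoxic ones, so that the highest treated value lay well below the lowest normoxic one. The log2 fold change was -1.11 ± 0.09, a 2.17-fold fall with adjusted p = 0.00468. Efna1 (ENSMUSG00000027954, chromosome 3, 89271733 to 89281142), a lipid-anchored ephrin that endothelial cells make in response to inflammatory cytokines, was at 35.8 and 33.6 CPM after treatment and at 61.0 and 54.2 CPM in normoxia, a 1.66-fold fall (log2 fold change -0.73 ± 0.08, adjusted p = 0.00875). Efnb1, X-linked and the most abundant ephrin per length, was at 229 and 190 CPM in treated libraries and 179 and 166 CPM in normoxic ones, with a log2 fold change of 0.28 ± 0.10 that did not pass (adjusted p = 0.133). The ephrin-B pair changed in relative terms. Per exon length the level of Efnb1 was 3.48 and 3.22 times that of Efnb2 in the treated libraries, against 1.26 and 1.30 times in the normoxic ones. The rare Efna2, Efna3, Efna4, Efna5 and Efnb3, at group means of 0.716 to 10.9 CPM, had log2 fold changes of -0.22 to 0.53.

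Of the Eph receptors 1 rose and 1 fell, with 9 of the 11 tested not passing. Epha4 (ENSMUSG00000026235, chromosome 1, 77367185 to 77515088), a receptor that binds ephrins of both the A and the B class, was at 58.1 and 50.6 CPM in treated libraries, against 28.9 and 32.6 CPM in normoxic ones. It rose 1.77-fold (log2 fold change 0.82 ± 0.10, adjusted p = 0.00997) and the groups stood apart. Epha1 (ENSMUSG00000029859, chromosome 6, 42358487 to 42373268), an epithelial Eph receptor, was at 24.4 and 20.1 CPM after treatment and 32.8 and 35.7 CPM in normoxia, a 1.54-fold fall (log2 fold change -0.62 ± 0.11, adjusted p = 0.0262). Opposite-strand reads made up 19.1% of the reads on Epha1, and with unstranded counts it still passed. Airway epithelial markers were lower in the same libraries. All 5 ciliated cell markers fell, beside 11.5% of all genes called in either direction. Their summed level was 309 to 322 CPM in treated and 484 to 491 CPM in normoxic libraries, with a median log2 fold change of -0.63. Of 3 club cell markers 2 fell (9910 to 12263 CPM, against 15535 to 15961 CPM, median -0.59), Scgb1a1 not passing. None of 6 alveolar type 2 markers passed. The summed level of these type 2 markers in treated libraries was 0.976 times the normoxic one, with a median log2 fold change of -0.048. Of 6 alveolar type 1 markers 1 fell. The type 1 sum in treated libraries was 0.873 times the normoxic one, with a median of -0.15. No marker of these lists was at 0, and their part in the fall of Epha1 was not tested. Ephb4, the venous receptor of ephrin-B2 and the most abundant Eph gene per length, was at 275 and 227 CPM in treated libraries and 198 and 194 CPM in normoxic ones, with a log2 fold change of 0.36 ± 0.10 and adjusted p = 0.0779. The level of Ephb4 per exon length was 3.12 and 2.86 times that of Efnb2 in the treated libraries and 1.04 and 1.13 times in the normoxic ones. In RNA per exon length Ephb4 and Efnb2 were thus near even in normoxia, and Ephb4 exceeded Efnb2 in both treated libraries. In CPM, not divided by length, Efnb2 was above Ephb4 in both normoxic libraries, at 283 and 253 CPM. Protein was not measured. Epha2, the usual partner of ephrin-A1, had a log2 fold change of 0.091 ± 0.07, with libraries of the groups overlapping. Ephb1 was higher but rare, at 7.02 and 5.34 CPM against 3.41 and 3.75 CPM in normoxia (log2 fold change 0.79 ± 0.19, adjusted p = 0.0583). Epha5, Epha6 and Epha8, receptors known mainly from the nervous system, had 12, 0 and 14 reads in all 4 libraries together and were not tested.

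Endothelial marker lists were mixed in direction. The share of all genes called in either direction, 11.5%, stands beside each of their counts. Of 8 pan-endothelial markers 3 rose (Cdh5, Tie1 and Emcn) and 5 did not pass, with a median log2 fold change of 0.36 and a summed level of 4184 to 5010 CPM in treated and 3364 to 3390 CPM in normoxic libraries. Arterial markers were split, Sox17 higher and Bmx and Hey1 lower of 6, and summed to 247 to 307 CPM after treatment and 255 to 260 CPM in normoxia. Of 5 aerocyte markers 1 rose and 3 fell (summed level 486 to 571 CPM, against 767 to 807 CPM), and of 5 general capillary markers 3 fell (2131 to 2179 CPM, against 2415 to 2705 CPM). Of 5 venous markers 1 fell (1021 to 1104 CPM, against 1257 to 1346 CPM). Of the 5 lymphatic markers tested 4 rose (528 to 591 CPM, against 348 to 404 CPM), with Ccl21a at 0 in all libraries. No marker of the other 5 lists was at 0. In whole lung, fewer cells of a type and less RNA per cell cannot be told apart, and the part of these cell types in the guidance gene results was not tested.

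**Figure D3:**
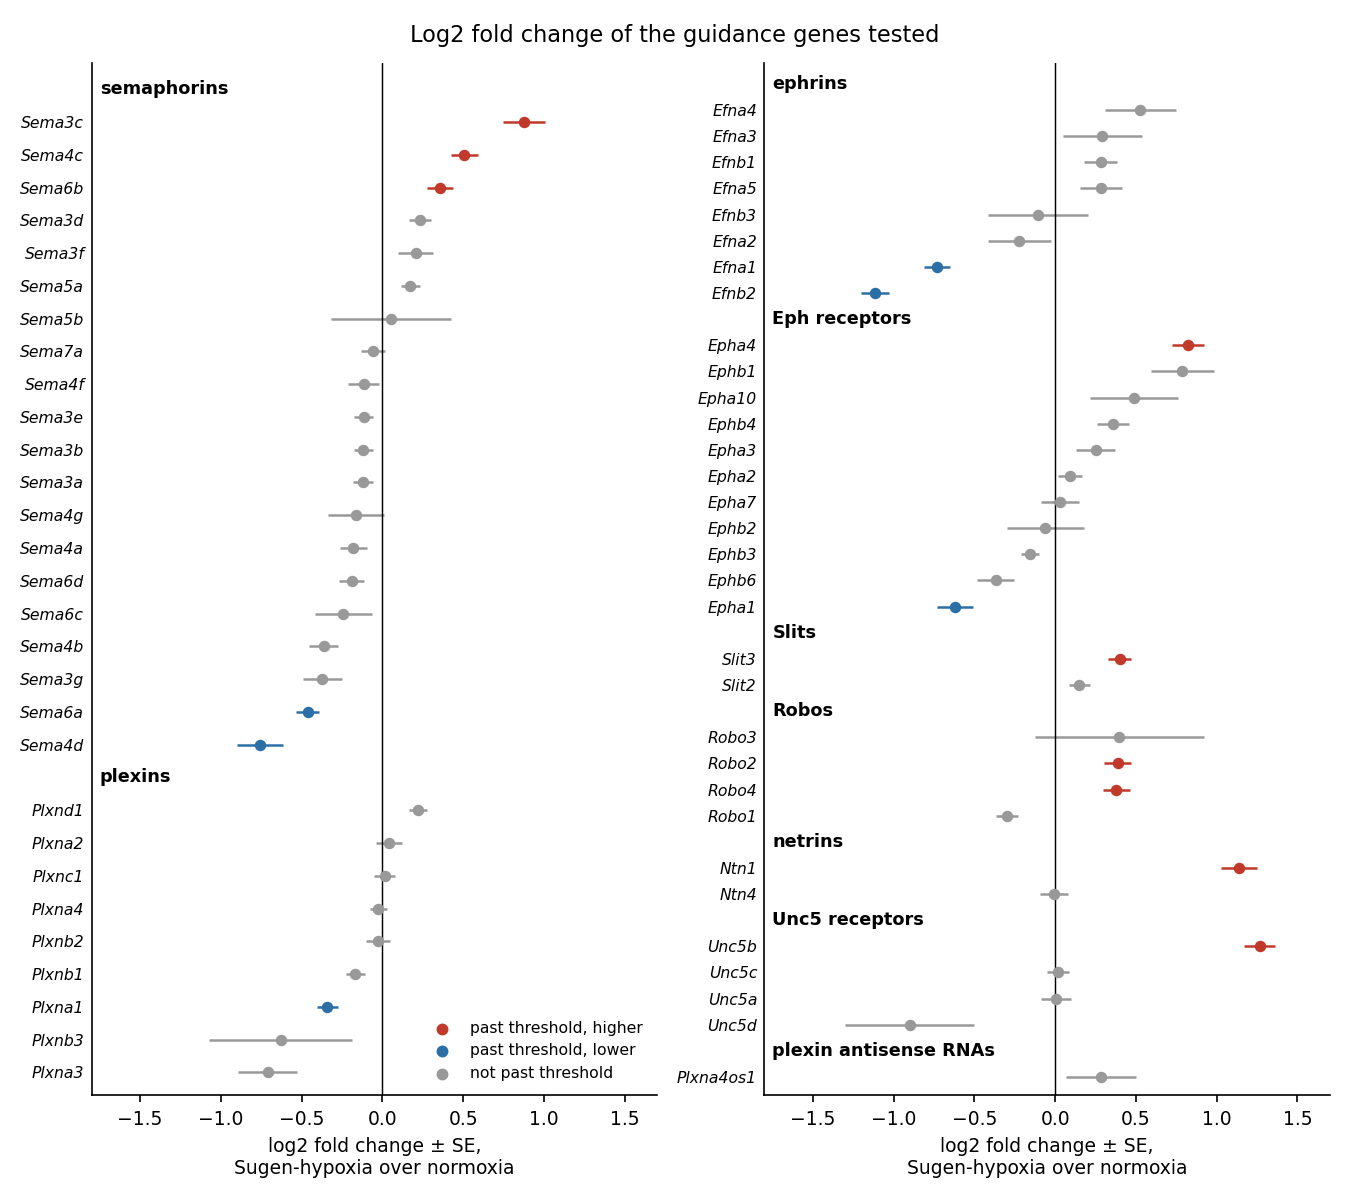
Log2 fold change (Sugen-hypoxia over normoxia) with its standard error for the 61 guidance genes tested, grouped by family, red where past the threshold and higher, blue where past it and lower, grey otherwise. Values run from -1.11 for Efnb2 to 1.27 for Unc5b, and members of 1 family lie on both sides of 0 in every family with more than 2 tested genes.

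Semaphorins went in both directions, with 3 of 20 higher and 2 lower. Sema3c (ENSMUSG00000028780, chromosome 5, 17574281 to 17730268), a secreted ligand needed for outflow tract and lung development and the most abundant guidance gene of the lung per exon length, was at 1104 and 923 CPM in treated libraries, against 503 and 602 CPM in normoxic ones. Its log2 fold change was 0.88 ± 0.13, a 1.83-fold rise with adjusted p = 0.0173, and the lowest treated library lay above the highest normoxic one. Within class 3 it held 48.4 and 48.3% of the summed level per exon length in treated libraries, against 30.5 and 34.5% in normoxic ones. The other class 3 genes did not pass. Sema3g, an arterial semaphorin, was at 255 and 199 CPM against 298 and 290 CPM in normoxia (log2 fold change -0.37 ± 0.12, adjusted p = 0.109), Sema3f had a log2 fold change of 0.20 ± 0.11, and Sema3a, Sema3b, Sema3d and Sema3e lay between -0.12 and 0.23.

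The membrane-bound semaphorins that passed were 2 higher and 2 lower. Sema4d (ENSMUSG00000021451, chromosome 13, 51685529 to 51793747), known as CD100 on lymphocytes and as a ligand of plexin-B1, was at 29.2 and 39.5 CPM after treatment and 59.6 and 56.7 CPM in normoxia. It fell 1.69-fold (log2 fold change -0.76 ± 0.14, adjusted p = 0.0298), and the treated pools differed from each other more than the normoxic pools did. Lymphocyte genes fell in the same libraries, beside 11.5% of all genes called in either direction. They were 9 of 10 T and NK markers (summed level 33.4 to 37.1 CPM, against 80.0 to 95.2 CPM in normoxia) and all 5 B cell markers (81.6 to 98.0 CPM, against 226 to 246 CPM). The fall was not particular to lymphocytes, as all 5 neutrophil markers fell (178 to 239 CPM, against 403 to 543 CPM). Of 5 alveolar macrophage markers 1 rose (1773 to 4683 CPM, against 731 to 841 CPM, median log2 fold change 0.052). The treated pools stood far apart in that sum. None of 5 monocyte and dendritic markers passed (131 to 244 CPM, against 139 to 151 CPM, median -0.33). No marker of these lists was at 0, and their part in the fall of Sema4d was not tested. Sema6a (ENSMUSG00000019647, chromosome 18, 47235598 to 47368870), a transmembrane ligand of class A plexins, was at 88.2 and 78.7 CPM against 114 and 116 CPM in normoxia, a log2 fold change of -0.46 ± 0.07 (adjusted p = 0.0185). Sema4c (ENSMUSG00000026121, chromosome 1, 36548639 to 36558349), a ligand of plexin-B2, was at 63.7 and 55.1 CPM after treatment, against 41.1 and 42.4 CPM in normoxia, a 1.42-fold rise (log2 fold change 0.51 ± 0.08, adjusted p = 0.022). Sema6b (ENSMUSG00000001227, chromosome 17, 56123085 to 56140343), a transmembrane relative of Sema6a, had the smallest margin of the 15. It was at 32.8 and 31.4 CPM in treated libraries and 26.4 and 23.7 CPM in normoxic ones (log2 fold change 0.36 ± 0.08, adjusted p = 0.0485), and did not pass with upper-quartile factors, library size alone or unstranded counts. Sema4b was at 19.1 and 21.4 CPM after treatment, against 26.7 and 25.5 CPM in normoxia, and did not pass (log2 fold change -0.36 ± 0.09, adjusted p = 0.054).

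Of the 9 plexins, the receptors of semaphorins, Plxna1 passed and the other 8 did not. Plxna1 (ENSMUSG00000030084, chromosome 6, 89316314 to 89362620), a receptor for class 3 and class 6 semaphorins, was at 253 and 261 CPM after treatment, against 318 and 334 CPM in normoxia, a 1.27-fold fall (log2 fold change -0.34 ± 0.06, adjusted p = 0.0297). Plxnb2, the most abundant plexin per length and the receptor of Sema4c, was at 357 and 394 CPM in treated and 385 and 381 CPM in normoxic libraries, with a log2 fold change of -0.027 ± 0.07. Plxnd1, the endothelial plexin through which several class 3 semaphorins act on vessels, was at 267 and 265 CPM against 227 and 230 CPM in normoxia. The groups of Plxnd1 did not overlap, but it did not pass (log2 fold change 0.22 ± 0.06, adjusted p = 0.0659). The X-linked Plxna3 and Plxnb3 were rare, with log2 fold changes of -0.71 ± 0.18 (adjusted p = 0.0639) and -0.63 ± 0.44 (adjusted p = 0.388). Plxna4os1 was at 2.49 and 2.39 CPM in treated and 1.87 and 2.14 CPM in normoxic libraries (adjusted p = 0.429), while Plxna4os2 and Plxna4os3 had 0 and 2 reads on the strand used, beside 38 and 296 on the opposite strand.

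Slit and Robo genes rose by small amounts in 3 of 6 tested cases. Slit3 (ENSMUSG00000056427, chromosome 11, 35121224 to 35708507), the main Slit of the lung by level per length, was at 236 and 215 CPM in treated libraries, against 176 and 166 CPM in normoxic ones, a 1.32-fold rise (log2 fold change 0.40 ± 0.07, adjusted p = 0.0286). Slit2 was at 111 and 102 CPM against 97.3 and 94.4 CPM in normoxia and did not pass (log2 fold change 0.15 ± 0.06, adjusted p = 0.188), and Slit1, a neural Slit, had 18 reads in all and was not tested. Of the receptors, Robo4 (ENSMUSG00000032125, chromosome 9, 37401897 to 37415115), which is restricted mainly to endothelium, was at 122 and 106 CPM after treatment and 90.2 and 84.9 CPM in normoxia, a log2 fold change of 0.38 ± 0.08 (adjusted p = 0.0453). Robo2 (ENSMUSG00000052516, chromosome 16, 73891839 to 74411825), a Slit receptor known from axon guidance and kidney development, was at 72.2 and 63.0 CPM against 50.3 and 53.1 CPM in normoxia, a log2 fold change of 0.39 ± 0.08 (adjusted p = 0.0417). Both calls were lost when upper-quartile factors or plain library sizes replaced TMM. Robo1 lay on the other side, at 25.2 and 26.0 CPM after treatment and 30.7 and 32.2 CPM in normoxia, with a log2 fold change of -0.30 ± 0.07 and adjusted p = 0.051. With those same scalings Robo1 passed, as it did with no filter, a mean of at least 1 CPM and DESeq2. It also passed with autosomal genes alone and without haemoglobin and immunoglobulin genes. With RLE factors, limma-voom, unstranded counts or the male fraction as a covariate it did not. The level of Robo2 per exon length was thus 2.79 and 2.36 times that of Robo1 in treated libraries, against 1.59 and 1.60 times in normoxic ones. Robo3 was at 0.289 CPM or less.

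Among mural cell markers, 4 of 7 passed in each of 2 lists, beside 11.5% of all genes. Of 7 pericyte markers 4 rose (summed level 816 to 951 CPM in treated and 622 to 629 CPM in normoxic libraries), and of 7 smooth muscle markers 4 rose (1243 to 1322 CPM, against 891 to 988 CPM). The 8 fibroblast markers did not pass (2594 to 3371 CPM, against 1976 to 2133 CPM), and their median log2 fold change was -0.0075. Of 6 alveolar type 1 markers 1 fell (3647 to 4014 CPM, against 4345 to 4433 CPM). No marker of these 4 lists was at 0, and their part in the Slit, Robo and semaphorin values was not tested.

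Genes that work with the guidance families were taken from 4 lists. Of 16 tested co-receptors and further guidance genes 2 rose and 1 fell. Among the risers was the neuropilin Nrp2, a co-receptor of class 3 semaphorins and of VEGF-C, at 196 and 220 CPM in treated libraries, against 141 and 142 CPM in normoxic ones (log2 fold change 0.56 ± 0.07, adjusted p = 0.0132). Nrp1 had -0.11 ± 0.07 and did not pass. Itgb1, the integrin subunit that binds semaphorin 7A, had a log2 fold change of 0.46 ± 0.08, and Flrt1, of a family of Unc5 ligands, had -1.20 ± 0.25, at 0.830 and 0.838 CPM in treated libraries and 1.92 CPM in both normoxic ones. Of 27 transducers of plexins 4 rose and 2 fell, including Limk1, a kinase that inactivates cofilin (log2 fold change 1.10 ± 0.09), the Ras relatives Mras (0.95 ± 0.10) and Rras2 (0.40 ± 0.07), and the collapsin response mediator Dpysl5 (-1.26 ± 0.15). Of 19 transducers of Eph and ephrin signals 6 rose and 1 fell. Tiam1, a Rac exchange factor, rose (0.69 ± 0.06), as did the ephrin-cleaving protease Adam10 (0.47 ± 0.06) and the adaptor Nck1 (0.43 ± 0.07), while Ngef, an exchange factor that binds Epha4, fell (-0.86 ± 0.08). Of 19 transducers of Robo, Unc5 and Dcc 2 rose, Srgap1, a Slit-Robo GTPase-activating protein (0.45 ± 0.07), and the kinase Abl2 (0.24 ± 0.06). The shares called in the 4 lists, in the order given, were 18.8%, 22.2%, 36.8% and 10.5%, beside 11.5% of all genes. Their medians were -0.07, 0.12, 0.026 and 0.06. Because the lists were chosen with earlier results of these data known, the shares do not stand as independent evidence.

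Leaving out 1 library changed how many members passed. Such a fit has a lone library in one group, assumed to vary like the other group's pair, which alone supplies the spread. Without normoxic replicate 1, the all-female pool, none of the 61 passed in edgeR's test, beside 0.128% of all genes, and 19 had an unadjusted p under 0.05 (31.1%, beside 16.0% of all genes). Without normoxic replicate 2 only Efnb2 passed, with adjusted p = 0.0435, beside 0.577% of all genes. Without treated replicate 1 a total of 25 members passed (41.0%, beside 25.7% of all genes), and without treated replicate 2 a total of 30 (49.2%, beside 24.4%), the 15 among them in both. Each of the 15 log2 fold changes kept its sign in all 15 alternatives. As the groups do not overlap for any of the 15, leaving out 1 library could hardly have reversed a sign. Set against the mixed pool alone, which is the normoxic library nearest in sex to the treated ones, Unc5b had a log2 fold change of 1.30, Ntn1 1.25, Efnb2 -1.03 and Sema3c 0.76. In a fit that also held each pool's male fraction (1 residual degree of freedom), none of the 61 passed in edgeR. In it 11 had an unadjusted p under 0.05 (beside 8.85% of all genes), and the same 4 genes had 1.32, 1.35, -0.95 and 0.62. That fit matches the normoxic pools exactly, so its residual spread comes from the treated pair alone. Its fold changes are set against an all-male normoxic level extrapolated from the normoxic pools. The CPM of the mixed pool fell between those of the female pool and the treated mean for 7 of the 15 called members, beside 55.0% of all called genes. For Sema3c, Epha4, Efnb2 and Efna1 it did, and for Unc5b and Ntn1 it did not.

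**Figure D4:**
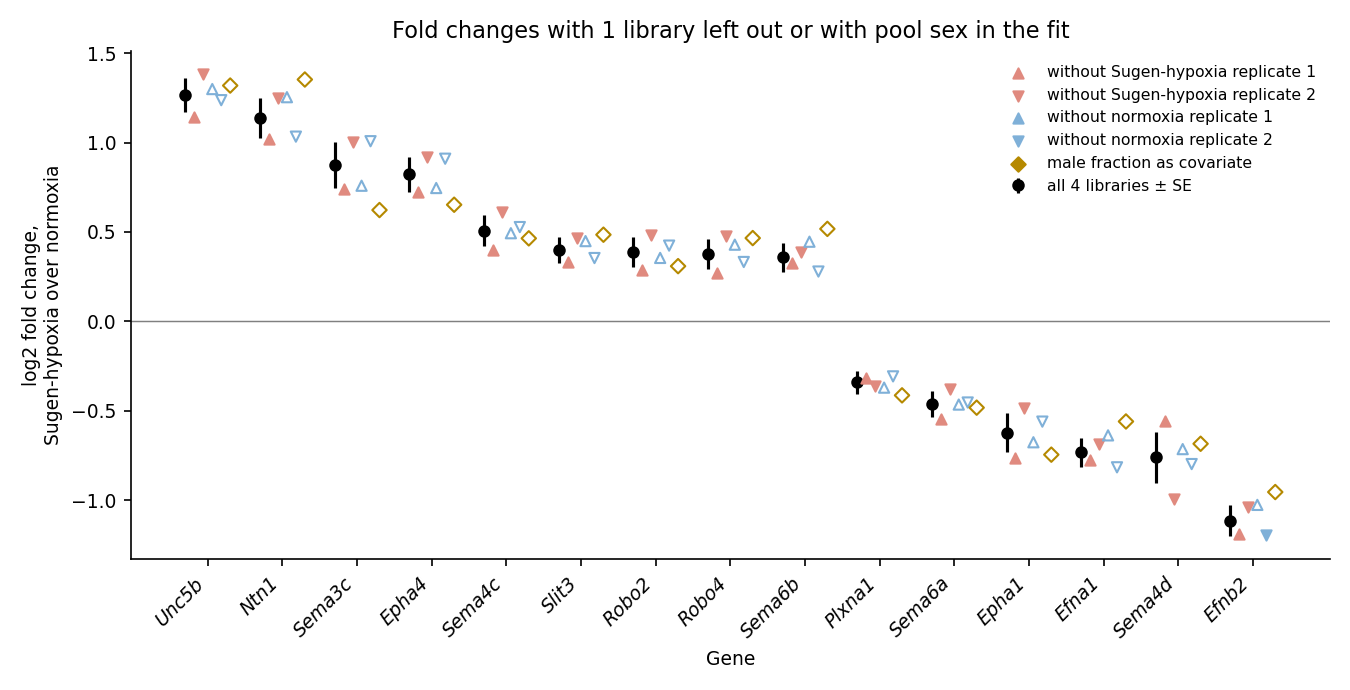
Log2 fold changes of the 15 called genes with all 4 libraries (black, with standard error), with 1 library left out (triangles) and with the male fraction as a covariate (diamonds), filled where the adjusted p stayed under 0.05 and open where it did not. Every point keeps its sign, which for the triangles follows nearly from the groups not overlapping. Points without a normoxic library or with the covariate are open except Efnb2 without normoxia replicate 2.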

How the data were processed

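RNA of 4 pooled lung samples was sequenced, and the authors deposited whole-number read counts per gene, made with STAR 2.5.1b, HTSeq and GRCm38.p4 per the submitters' processing notes; the annotation is not given in the sources used here. Each table has an unstranded and 2 stranded count columns, and the column with 20.9 to 24.9 times the reads of its opposite was used. Summary entries that name no gene, 21.0 to 22.1% of all reads, were left out.

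Genes were named from GENCODE M21. Counts were filtered with filterByExpr, scaled with TMM and tested with edgeR 4.0.16 (quasi-likelihood, 2-sided, Benjamini-Hochberg over 18783 genes, threshold 0.05), the SE being the absolute log2 fold change over the root of F. CPM are counts over TMM-scaled library sizes. Levels per length are CPM per kilobase of union exon length. Of the genes, the text names all called members, the top member of each family per length, and up to 4 called genes of each pathway list by size of change. Other genes, among them members that were not called, were named without a fixed rule. Members and lists were chosen with earlier results of these data known. The edgeR fit was tested on counts simulated from its own means and dispersions, with known fold changes and no sex difference. That check set a limit on fold-change bias alone. Promoter windows are from RefSeq (GRCm38.p6). DESeq2 1.42.0 and limma-voom 3.58.1 were alternatives. All samples analysed here carry the control genotype.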

Additional observations from a re-analysis of the deposited data

How the results depend on the processing

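All 15 called genes kept their direction under the 15 alternatives, which for fits without 1 library follows nearly from the groups not overlapping. All 15 kept their call with RLE factors, no filter, a mean of at least 1 CPM, DESeq2 and limma-voom. The same held for autosomal genes alone and without haemoglobin and immunoglobulin genes. Leaving out each library in turn, which leaves 1 library in a group and the spread to the other pair, gave 0 to 18 members higher, 0 to 14 lower, 25 to 5101 genes called in all and 0 to 42 pathway genes called. With the male fraction as a covariate, edgeR called 0 members in either direction, 11 genes in all and 0 pathway genes, with 11 members and 1662 genes at an unadjusted p under 0.05. Without a filter 10 members were lower, 3657 genes were called and 33 pathway genes, and with DESeq2 10, 3254 and 32. The cause was not tested. The median log2 fold change of all genes moved at most to -0.07, with library size alone. No paired analysis was possible because replicate numbers here only name the pools in accession order, and the labels pair no pool of one group with a pool of the other. With 2 pools a group, p-values rest on little replication.

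Among members that were not called, 12 changed sign under some alternative. Their log2 fold changes in the fit used above ran from -0.12 (Sema4f) to 0.052 (Sema5b). With the male fraction as a covariate, these were Ntn4 0.036, Sema4f 0.021, Sema7a 0.020, Ephb2 0.21, Unc5a -0.0099, Unc5c -0.023 and Plxnc1 -0.11. With library size alone, these were Sema5b -0.017, Epha7 -0.039, Unc5a -0.063, Unc5c -0.052, Plxna2 -0.025 and Plxnc1 -0.055. With upper-quartile factors, these were Epha7 -0.022, Unc5a -0.046, Unc5c -0.035, Plxna2 -0.0078 and Plxnc1 -0.037. With a mean of at least 1 CPM, this was Unc5a -0.0024. With unstranded counts, this was Unc5a -0.0026. Leaving out each library in turn gave ranges that spanned 0: Ntn4 -0.12 to 0.098, Sema5b -0.030 to 0.14, Sema7a -0.13 to 0.022, Epha7 -0.11 to 0.15, Ephb2 -0.35 to 0.18, Unc5a -0.023 to 0.036, Unc5c -0.019 to 0.054, Plxna2 -0.056 to 0.15, Plxna4 -0.052 to 0.0043, Plxnb2 -0.098 to 0.044 and Plxnc1 -0.039 to 0.073. The cause was not tested.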
